A study of Mus musculus with 16 samples.

Results

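The Hox cluster genes are the homeobox genes of the HoxA, HoxB, HoxC and HoxD clusters. Every gene whose name in the deposited tables is Hox followed by a cluster letter and a number was taken, which gave 39 genes in both tables, of 55414 genes in the table of the untreated experiment and 56980 in that of the IFNγ experiment. The HoxA cluster contributed 11 genes, HoxB 10, HoxC 9 and HoxD 9. RNA-seq was performed on KPC1199, a mouse pancreatic ductal adenocarcinoma cell line from tumors of mice with Pdx-cre and a Trp53 R172H allele. All groups carried these, and all had been transduced with the lentiCRISPR v2 vector and selected with puromycin. Control cells received a non-targeting guide, sgCtrL, and are given as wild type for Sin3B. Knockout cells received the single guide Sin3Bsg1, and whether these cells were a clone or a pool is not given in the sources used here. The untreated experiment held 2 sgCtrL and 2 Sin3Bsg1 libraries. The IFNγ experiment held 3 libraries in each of 4 groups, sgCtrL and Sin3Bsg1 cells without IFNγ and the same cells after 24 h of 10 ng/ml IFNγ. The labels do not say that replicates were separate cultures, so p-values measure the spread between these libraries, which may be technical.

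Hox genes encode homeodomain transcription factors that give cells their position along the head-to-tail axis of the embryo. Within a cluster they lie in the order in which they are used, low-numbered genes being active early and toward the head and high-numbered genes late and toward the tail. Polycomb complexes keep silent parts of a cluster repressed, MLL complexes hold active parts on, and retinoic acid opens the low-numbered end. Hox proteins bind DNA together with the cofactors of the Pbx and Meis families. SIN3B is a scaffold protein of a histone deacetylase corepressor complex, and IFNγ is a cytokine that signals through JAK kinases. The question put to these genes is which clusters KPC1199 cells expressed, and whether their levels differed with loss of Sin3B or with IFNγ.

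Library totals were 29499708 to 32093653 counts for the 4 untreated libraries and 18128031 to 27056860 for the 12 libraries of the IFNγ experiment. A count of 0 therefore allowed a level of up to 0.0935 to 0.102 CPM (read counts scaled to library size) in the untreated and 0.111 to 0.165 CPM in the IFNγ libraries, taken as 3 counts and covering counting error only. Replicates of a group differed by 2.43 to 9.63 times the sampling noise per gene (chi-square over its degrees of freedom), except that replicate 1 of the IFNγ-treated sgCtrL cells differed from replicates 2 and 3 by 23.2 and 19.5 times and stood apart. Calls with that group are given with and without this library. Sin3b, the targeted gene, stood at 88.5 and 83.3 normalised CPM in untreated sgCtrL cells and at 36.5 and 34.1 in Sin3Bsg1 cells. In the IFNγ experiment its 6 sgCtrL libraries lay at 80.3 to 95.5 and its 6 Sin3Bsg1 libraries at 33.6 to 39.4 normalised CPM, and its log2 fold change was -1.28 (adjusted p = 1.24e-11, edgeR), -1.24 (adjusted p = 5.1e-10) and -1.22 (adjusted p = 5.21e-10) in the untreated, the IFNγ-free and the IFNγ-treated comparison. The guide tggctcccgctggggtcgtt, copied from the study's guide list, matched chr8:73449982-73450001 on the plus strand of GRCm39, in exon 1 of Sin3b, and was followed by an NGG PAM. Epithelial markers were abundant, with summed levels of 3886 to 7367 TPM (levels per length, scaled to library size), and Cldn4 was at or under 3 counts in every library of the IFNγ experiment. Ptprc, Cd3e, Csf1r and Adgre1 of 6 immune markers, Cdh5, Kdr and Tie1 of 4 endothelial markers and Cpa1 and Pnlip of 5 acinar markers were at or under 3 counts in every library. The immune list still summed to 10.2 to 12.1 TPM in the untreated and 9.57 to 14.8 TPM in the IFNγ experiment. Of its other members, Cd68 exceeded 3 counts in both experiments and Cd79a in the IFNγ experiment only. The endothelial list summed to at most 0.389 TPM. Of 8 fibroblast markers, Lum and Fap were at or under 3 counts in every library. In bulk samples, fewer cells of a type and less RNA per cell cannot be told apart.

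The promoters of 4 members on which the results turn are shown first. Each run is the 250 bases upstream of the annotated start of the gene, from RefSeq on GRCm38.p6, 5′ to 3′ on the strand of the gene. Capitals mark matches, on either strand, to TGATNNAT (bound by a Hox protein with Pbx), TTCNNNGAA (the GAS element of interferon signalling), TATAAA (the core promoter element bound by TBP) or CACGTG (the E-box, to which MAX-MXD dimers bring SIN3 complexes). Hoxb8 (chr11:96281655-96281904, plus strand) and Hoxd4 (chr2:74721728-74721977, plus strand) were lower in Sin3Bsg1 cells in every genotype comparison, Hoxa13 (chr6:52260881-52261130, minus strand) was the only tested member higher in untreated Sin3Bsg1 cells, and Hoxa3 (chr6:52213068-52213317, minus strand) was the most abundant.
Hoxb8: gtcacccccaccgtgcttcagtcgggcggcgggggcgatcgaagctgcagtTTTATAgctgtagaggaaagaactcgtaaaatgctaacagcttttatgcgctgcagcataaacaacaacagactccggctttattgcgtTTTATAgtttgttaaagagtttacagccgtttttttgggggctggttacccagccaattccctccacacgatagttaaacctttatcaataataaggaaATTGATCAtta
Hoxd4: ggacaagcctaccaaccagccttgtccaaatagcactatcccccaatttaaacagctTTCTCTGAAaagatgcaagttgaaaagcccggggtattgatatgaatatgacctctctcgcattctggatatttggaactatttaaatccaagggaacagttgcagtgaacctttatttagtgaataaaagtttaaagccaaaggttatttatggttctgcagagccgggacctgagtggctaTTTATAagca
Hoxa13: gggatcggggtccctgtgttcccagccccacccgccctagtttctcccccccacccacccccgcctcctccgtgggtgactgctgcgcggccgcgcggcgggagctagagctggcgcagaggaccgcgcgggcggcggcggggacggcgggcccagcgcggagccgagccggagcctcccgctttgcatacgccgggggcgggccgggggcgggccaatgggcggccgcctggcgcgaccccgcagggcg
Hoxa3: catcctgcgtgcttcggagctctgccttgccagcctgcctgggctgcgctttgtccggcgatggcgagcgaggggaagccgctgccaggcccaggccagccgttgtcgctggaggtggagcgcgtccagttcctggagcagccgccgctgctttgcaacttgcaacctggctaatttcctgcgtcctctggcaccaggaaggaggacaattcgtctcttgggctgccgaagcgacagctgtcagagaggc

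The Hoxb8 and Hoxd4 runs were poor in G and C, at 44.4% and 40.4%, and held 12 and 3 CpG pairs. The Hoxa3 and Hoxa13 runs were rich, at 64.8% and 80.0%, with 18 and 35 CpG pairs and no match to the 4 motifs. The Hoxb8 run held 1 Hox-Pbx motif and 2 TATAAA matches, and the Hoxd4 run 1 GAS element and 1 TATAAA match. Promoter entries were found for 22 of the 39 members, 24 entries in all, of 32851 entries for the genome. The median entry of a Hox gene held 12.5 CpG pairs and the median of all entries 6. The Hox-Pbx motif was in 4 of the 24 Hox entries (Hoxa2, Hoxb1, Hoxb8 and Hoxd11) and in 7.68% of all entries. TATAAA was in 4 (Hoxa10, Hoxb8, Hoxd4 and Hoxd13) against 12.4% of all, CACGTG in 4 (Hoxd1, Hoxd10, Hoxd11 and Hoxd13) against 6.02%, and TTCNNNGAA in 1 (Hoxd4) against 7.02%. A match is a stretch of letters and was not tested as a binding site.

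KPC1199 cells expressed mainly the HoxA cluster, with low levels of a few HoxB genes and of Hoxd4, and next to nothing of HoxC. Levels between genes are compared in TPM. Summed over the 11 HoxA genes, the level was 39.1 to 52.3 TPM in the 4 untreated libraries and 37.5 to 52.0 TPM in the 12 libraries of the IFNγ experiment. HoxA transcripts made up 85.2% to 93.8% of all Hox TPM in the first and 69.8% to 88.5% in the second. The HoxB cluster (chr11:96085106-96259082 of GRCm39) summed to 2.63 to 7.18 and 2.44 to 10.6 TPM, and the HoxD cluster (chr2:74498654-74595486) to 0 to 2.15 and 2.69 to 11.2 TPM. The HoxC cluster (chr15:102829538-102945278) received 1 to 6 counts per untreated library and 0 to 1 counts per library of the IFNγ experiment. Members of paralog groups 1 to 8, the head-ward end of the clusters, held 86% to 94.5% of Hox TPM in the untreated and 90.2% to 96% in the IFNγ experiment.

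**Figure D1:**
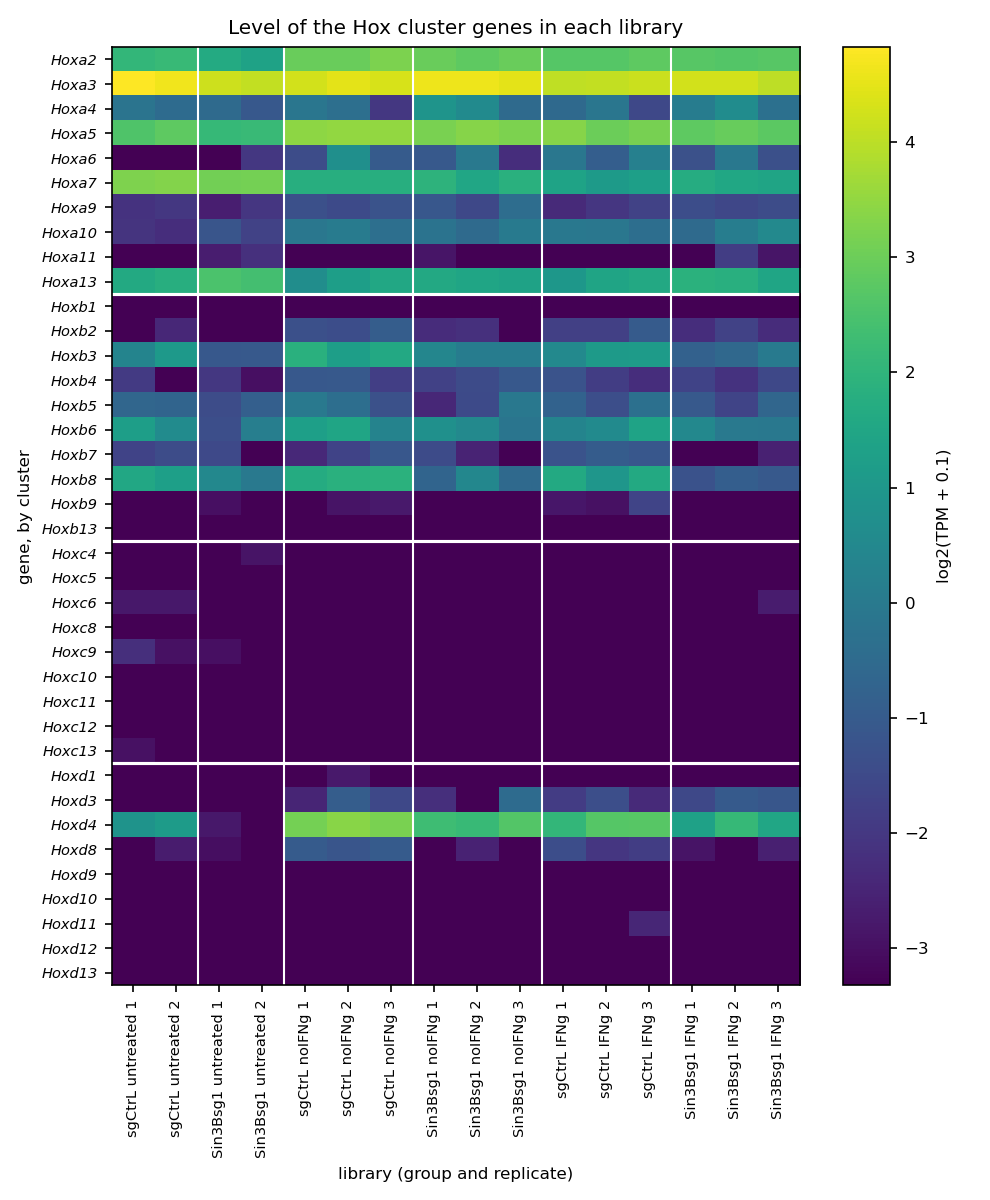
Heat map of the level of the Hox cluster genes reported here (rows, by cluster) in each of the 16 libraries (columns, by group and replicate), in color as log2(TPM + 0.1). Hoxa3 is the brightest row, with Hoxa2, Hoxa5, Hoxa7 and Hoxa13 also bright, HoxC rows are dark or nearly so, and Hoxd4 is brighter in the 12 libraries of the IFNγ experiment than in the 4 untreated ones.

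Hoxa3, needed for the organs of the pharyngeal arches, was the most abundant member, with a median of 21.6 TPM in the untreated and 19.3 TPM in the IFNγ experiment. Its mean level stood at percentile 73.5 and 75.4 of the genes with counts, and it alone made 43.0% to 54.1% and 40.6% to 48.3% of HoxA TPM. Next within HoxA in the untreated experiment came Hoxa7 at a median of 9.02 TPM, Hoxa5, a gene of lung and trachea formation, at 5.18, Hoxa13, which patterns digits, hindgut and genital tubercle, at 4.22, and Hoxa2, of the second pharyngeal arch, at 3.61 TPM. In the IFNγ experiment the order after Hoxa3 within HoxA was Hoxa5 at 9.18, Hoxa2 at 6.91, Hoxa7 at 3.0 and Hoxa13 at 2.69 TPM. Outside HoxA, the medians of Hoxb8, a gene that holds myeloid progenitors in cycle, were 1.80 and 1.55 TPM, those of Hoxb6 were 1.22 and 1.31, those of Hoxb3, of the hindbrain, were 0.779 and 1.28, and those of Hoxd4, which shapes the cervical vertebrae, were 0.877 and 5.48 TPM. The ranges of Hoxb3, Hoxb6 and Hoxb8 over the libraries overlapped in both experiments.

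Among the 39 members, 11 had no count in any of the 16 libraries, Hoxb1, Hoxb13, Hoxc5, Hoxc8, Hoxc10, Hoxc11, Hoxc12, Hoxd9, Hoxd10, Hoxd12 and Hoxd13. A further 5, Hoxc4, Hoxc6, Hoxc13, Hoxd1 and Hoxd11, had at most 3 counts in every library, and Hoxc9 reached 4 counts in 1 library. These genes were not detectable at this depth or nearly so. Hoxa6, Hoxa11, Hoxb2, Hoxb7, Hoxb9 and Hoxd8 had over 3 counts in at least 1 library but passed the filter on low counts in neither table. Members with at least 10 counts at the median depth (0.33 CPM in at least 2 untreated libraries, 0.434 CPM in at least 3 libraries of the IFNγ experiment) were tested, 12 of 39 in the untreated and 16 of 39 in the IFNγ experiment. Hoxa4, Hoxb5, Hoxb6 and Hoxd4 passed in the untreated experiment only through the sgCtrL libraries, and Hoxb8 passed in the IFNγ experiment only through sgCtrL libraries, so counts over the tested members are given as a description.

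**Figure D2:**
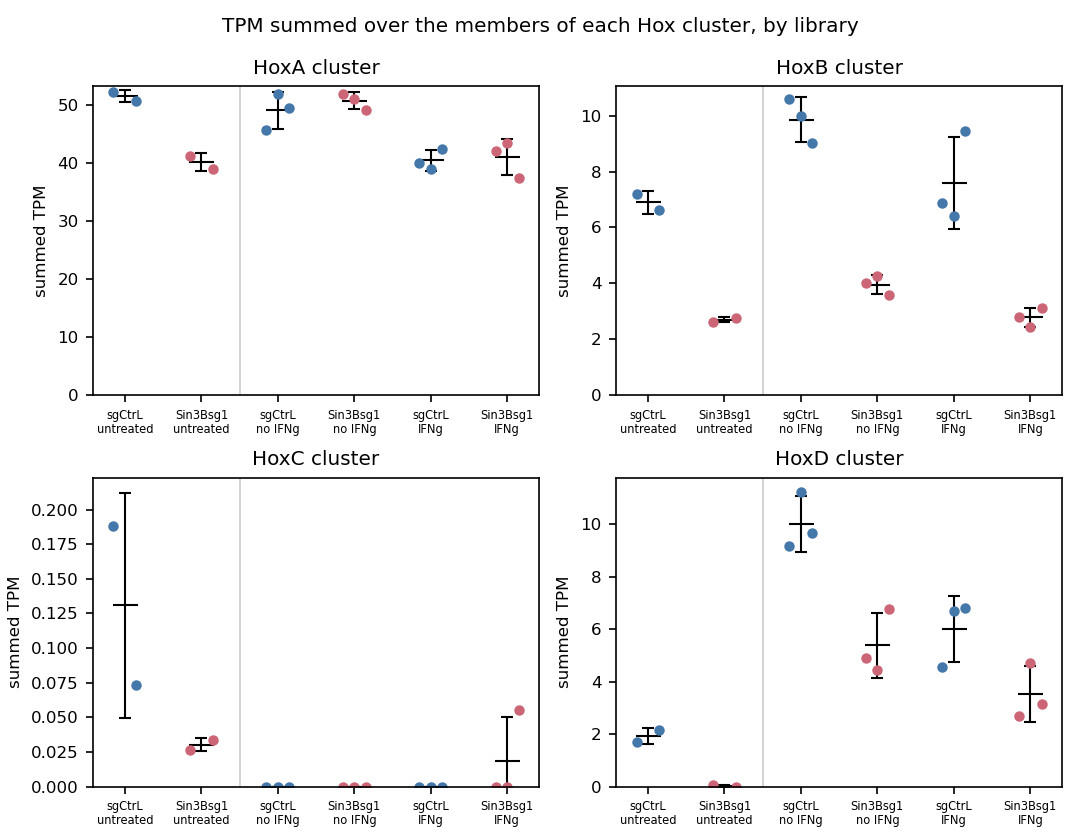
TPM summed over the members of each cluster, 1 panel per cluster, for each library (points, blue sgCtrL and red Sin3Bsg1), with the mean and SD of each group (black). HoxA sums lie at 37.5 to 52.3 TPM in all 16 libraries, HoxB sums are lower in Sin3Bsg1 than in sgCtrL cells in both experiments, and HoxD sums are close to 0 only in the 2 untreated Sin3Bsg1 libraries.

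The cluster sums by group showed where the genotypes stood apart. HoxB summed to 6.90 ± 0.404 TPM (SD, n = 2) in untreated sgCtrL and 2.69 ± 0.0860 in Sin3Bsg1 cells. Without IFNγ it summed to 9.86 ± 0.791 in sgCtrL and 3.95 ± 0.340 in Sin3Bsg1 cells (n = 3), and with IFNγ to 7.58 ± 1.64 and 2.78 ± 0.337 TPM. HoxD summed to 1.93 ± 0.314 against 0.0334 ± 0.0472 TPM in the untreated, 10.0 ± 1.07 against 5.38 ± 1.23 without IFNγ and 6.01 ± 1.27 against 3.53 ± 1.07 TPM with IFNγ. Mean HoxB and HoxD sums were thus lower in Sin3Bsg1 cells each time, without a test on the sums. With IFNγ the HoxD sums overlapped, at 4.55 to 6.81 TPM in sgCtrL and 2.69 to 4.73 TPM in Sin3Bsg1 libraries. HoxA sums were 51.6 ± 1.03 against 40.2 ± 1.59 TPM in the untreated experiment, but 49.1 ± 3.16 against 50.8 ± 1.44 without and 40.5 ± 1.79 against 41.1 ± 3.13 TPM with IFNγ.

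The tables of the experiments were made and normalised separately, and no test joined them. Side by side, Hoxa7 had 262 to 284 counts in the untreated libraries and 49 to 89 in those of the IFNγ experiment, Hoxd3 had 0 and 0 to 19 counts, and Hoxaas2, an antisense RNA across Hoxa3, had 0 and 24 to 95 counts. The untreated table also held 324 assembled loci that the other did not hold, with 0.615% to 0.677% of its counts. They have no position in the table, so it is not known whether any of them holds Hox reads.

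In the untreated experiment, loss of Sin3B went with lower levels of Hoxd4, Hoxb3, Hoxb6, Hoxb8, Hoxa2, Hoxa3 and Hoxa5 and a higher level of Hoxa13. These were 8 of the 12 tested members past an adjusted p of 0.05 (edgeR's quasi-likelihood test with Benjamini-Hochberg adjustment over all genes), and 31.2% of all genes tested were past it, 15.1% higher and 16% lower. The ranges of the genotypes did not overlap for any of the 12, 11 lower and 1 higher, against 63.3% of all genes, 31.4% lower and 31.9% higher. The median log2 fold change of the 12 was -0.573 and that of all genes 0.00241. Hoxa4, Hoxb5, Hoxb6 and Hoxd4 among the 12 passed the filter only through sgCtrL libraries, so this median is a description. Without IFNγ, 3 of 16 tested members were lower and none higher, with 17.2% of all genes past the threshold (7.89% higher and 9.32% lower). The genotypes did not overlap for 5 members (Hoxa2, Hoxa5, Hoxb3, Hoxb8 and Hoxd4), all lower, against 39.2% of all genes, 18.3% higher and 20.9% lower. With IFNγ, 3 of 16 were again lower, with 16.5% of all genes past the threshold (8.62% higher and 7.89% lower), and 6 members did not overlap, 2 higher and 4 lower, against 30.4% of all genes, 15.4% higher and 14.9% lower. The 3 members past the threshold in the last 2 comparisons were Hoxb3, Hoxb8 and Hoxd4, which were also lower in the untreated experiment. In the IFNγ experiment 3 of 16 is 18.8%, close to the share of all genes.

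Hoxb8 stood at 1.58 and 1.29 normalised CPM in untreated sgCtrL cells and at 0.716 and 0.485 in Sin3Bsg1 cells. Without IFNγ, it was at 1.62, 1.84 and 1.87 CPM in sgCtrL and 0.266, 0.652 and 0.301 CPM in Sin3Bsg1 cells. With IFNγ, the values were 1.64, 1.02 and 1.62 CPM against 0.167, 0.242 and 0.215 CPM. Every Sin3Bsg1 library was below every sgCtrL library of its comparison. In the IFNγ experiment Hoxb8 passed the filter on low counts only through sgCtrL libraries, so its test there is a description. The log2 fold change of Hoxb8 was -1.25 (SE 0.373, adjusted p = 0.0177, edgeR) in the untreated, -2.13 (SE 0.369, adjusted p = 7.41e-04) in the IFNγ-free and -2.74 (SE 0.411, adjusted p = 2.09e-04) in the IFNγ-treated comparison. In the untreated experiment the call was lost without Sin3Bsg1 replicate 2 (adjusted p = 0.122), without sgCtrL replicate 1 (adjusted p = 0.149) and with DESeq2 (adjusted p = 0.0827).

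Hoxb3 was at 1.07 and 1.84 normalised CPM in untreated sgCtrL cells and 0.342 and 0.356 CPM in Sin3Bsg1 cells. In cells without IFNγ, it was at 2.96, 1.96 and 2.51 CPM in sgCtrL and 1.07, 0.826 and 0.816 CPM in Sin3Bsg1 libraries. In cells with IFNγ, it was at 1.19, 1.93 and 1.89 CPM against 0.417, 0.524 and 0.858 CPM. The groups did not overlap in any of the 3 comparisons. The log2 fold change of Hoxb3 was -2.05 (SE 0.436, adjusted p = 0.00179, edgeR), -1.44 (SE 0.303, adjusted p = 0.00334) and -1.48 (SE 0.325, adjusted p = 0.00488) in the same order. The untreated call was lost without sgCtrL replicate 2 (adjusted p = 0.0637). Hoxb3os, an antisense RNA, covers 51.5% of the exon bases of Hoxb3, and the strand setting of the counting is not given in the sources used here. In an alternative added after seeing the data, the counts of both summed gave -2.02 (adjusted p = 0.00195), -1.49 (adjusted p = 0.00316) and -1.34 (adjusted p = 0.0117).

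Hoxb6 was at 1.44 and 0.918 normalised CPM in untreated sgCtrL and 0.187 and 0.647 CPM in Sin3Bsg1 cells, so its Sin3Bsg1 replicates lay far from each other but below both controls. Its log2 fold change was -1.50 (SE 0.505, adjusted p = 0.0329, edgeR) there, and it moved to -0.86 without Sin3Bsg1 replicate 1 and to -2.64 without Sin3Bsg1 replicate 2. Without IFNγ, Hoxb6 was at 1.4, 1.63 and 0.695 CPM in sgCtrL and 0.951, 0.783 and 0.473 CPM in Sin3Bsg1 cells, with a log2 fold change of -0.76 (SE 0.406, adjusted p = 0.237). With IFNγ, Hoxb6 was at 0.745, 0.906 and 1.62 CPM against 0.793, 0.565 and 0.558 CPM, with -0.77 (SE 0.414, adjusted p = 0.241). The groups overlapped in both, and neither passed the test. In the untreated experiment Hoxb6 passed the filter on low counts only through sgCtrL libraries, so its test there is a description. Hoxb5os covers 30.8% of the exon bases of Hoxb6.

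Of the other HoxB members, Hoxb5 was at 0.504 and 0.476 normalised CPM in untreated sgCtrL and 0.249 and 0.421 CPM in Sin3Bsg1 cells, with a log2 fold change of -0.55 (SE 0.535, adjusted p = 0.492). Hoxb5 of the IFNγ experiment was at 0.754, 0.584 and 0.267 CPM in sgCtrL and 0.0761, 0.217 and 0.731 CPM in Sin3Bsg1 cells without IFNγ, and at 0.447, 0.264 and 0.63 against 0.334, 0.202 and 0.515 CPM with it. Hoxb4, a gene that expands blood stem cells when raised, was tested only in the IFNγ experiment. It was at 0.431, 0.459 and 0.214 CPM in sgCtrL and 0.228, 0.304 and 0.43 CPM in Sin3Bsg1 cells without IFNγ, and at 0.397, 0.226 and 0.135 against 0.25, 0.161 and 0.3 CPM with it. Hoxb4 and Hoxb5 overlapped between the genotypes in the IFNγ experiment and passed no test.

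**Figure D3:**
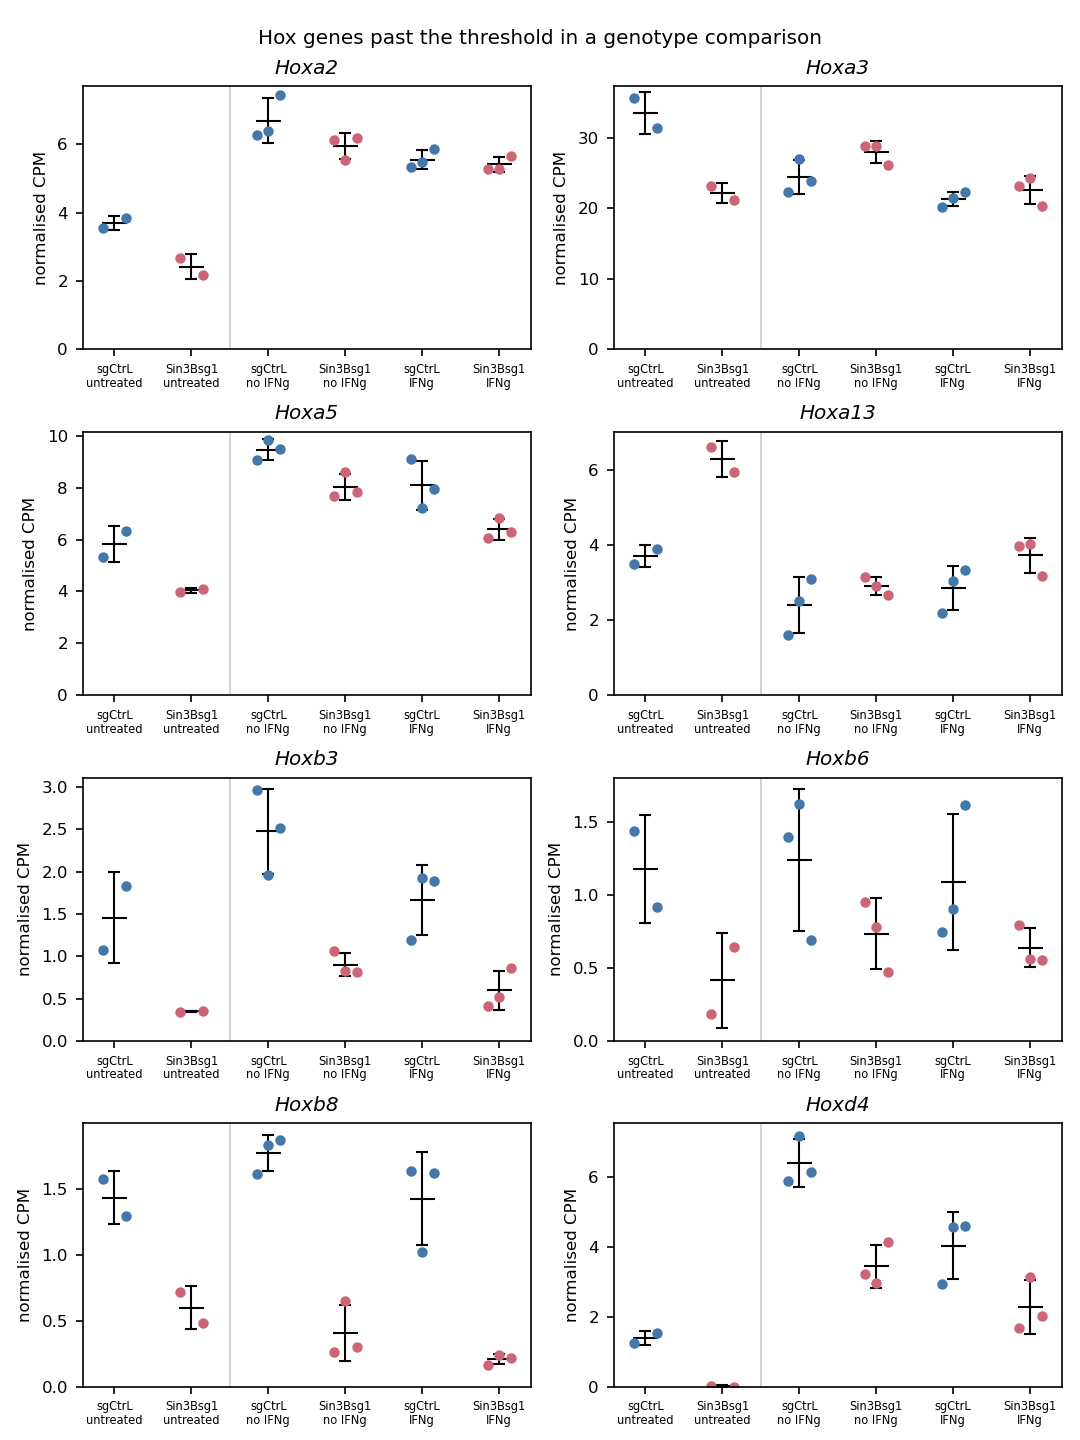
Normalised CPM of the 8 Hox genes past the threshold in at least 1 genotype comparison, for each library (points, blue sgCtrL and red Sin3Bsg1), with the mean and SD of each group (black) and a gray line between the untreated and the IFNγ experiment. Hoxb3 and Hoxb8 are lower in Sin3Bsg1 cells in all 3 comparisons, Hoxa5 does not overlap between the genotypes in any, and Hoxa3 and Hoxa13 overlap in the IFNγ experiment.

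Hoxd4 had 37 and 45 counts in the untreated sgCtrL libraries (1.24 and 1.53 normalised CPM) and 1 and 0 counts in the Sin3Bsg1 libraries (0.0311 and 0 CPM). The ratio of the summed counts, 82 against 1, corrected for depth, was 87.3-fold lower in Sin3Bsg1 cells, with an exact 95% counting interval of 15.2 to 3490 (adjusted p = 1.02e-05, edgeR). As Hoxd4 passed the filter on low counts in the untreated experiment only through sgCtrL libraries, its test there is a description. Hoxd4 was reduced but present in the IFNγ experiment. Without IFNγ, it was at 5.87, 7.17 and 6.14 CPM in sgCtrL and 3.23, 2.96 and 4.13 CPM in Sin3Bsg1 cells, without overlap, with a log2 fold change of -0.90 (SE 0.223, adjusted p = 0.0104). With IFNγ, it was at 2.93, 4.57 and 4.59 CPM against 1.67, 3.15 and 2.02 CPM, with -0.83 (SE 0.239, adjusted p = 0.0261), and the groups overlapped. The call without IFNγ was lost without replicate 2 of either genotype (adjusted p = 0.0523 and 0.0545), and the call with IFNγ was lost without Sin3Bsg1 replicate 1 or 3 or sgCtrL replicate 2 or 3 (adjusted p = 0.0840 to 0.110) and in a fit of these 2 groups alone (adjusted p = 0.0900).

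The exons of Hoxd4 share bases with Hoxd3 (13.1%), with Gm28230, a protein-coding gene model on the same strand (38.9%), and with Hoxd3os1 (11.7%), so the division of reads among them is uncertain. Gm28230 had 2 to 13 counts in the untreated and 17 to 83 in the IFNγ experiment. In an alternative added after seeing the data, Hoxd4, Hoxd3 and Gm28230 were summed, and the log2 fold change of the sum was -3.68 (adjusted p = 3.01e-05, edgeR) in the untreated, -0.95 (adjusted p = 2.43e-04) in the IFNγ-free and -0.58 (adjusted p = 0.0165) in the IFNγ-treated comparison. Hoxd3 itself was tested only in the IFNγ experiment, at 0.108, 0.584 and 0.321 normalised CPM in sgCtrL and 0.152, 0 and 0.816 CPM in Sin3Bsg1 cells without IFNγ, and at 0.248, 0.415 and 0.135 against 0.334, 0.565 and 0.515 CPM with it. Its groups overlapped.

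Members left untested were looked at for genotype groups that did not overlap, and those below were named after their values were seen. On the lower side, Hoxd8 had 9 to 10 counts in sgCtrL and 0 to 2 in Sin3Bsg1 libraries without IFNγ, a ratio of 16.6 (95% counting interval 4.18 to 144), and 5 to 7 against 0 to 2 counts with IFNγ, a ratio of 5.93 (1.72 to 31.6). Hoxb2 had 4 to 6 against 0 to 2 counts without IFNγ, a ratio of 4.44 (1.41 to 18.4), and Hoxb7 had 4 to 7 against 0 to 1 counts with IFNγ, a ratio of 16.7 (2.6 to 702). Hoxb9 had 1 to 6 counts against 0 with IFNγ. On the higher side, Hoxa10 had 8 and 14 counts in untreated Sin3Bsg1 libraries and 4 and 5 in sgCtrL libraries, and Hoxa11 had 2 and 4 counts against 0. Hoxc6 (1 count in each untreated sgCtrL library against 0) and Hoxc9 (1 to 4 against 0 to 1) were at the limit of detection. Sin3Bsg1 replicate 1 and sgCtrL replicate 2 both held 1 count of Hoxc9 and differed only by scaling to library size. Its ratio of 5.32 had a 95% counting interval of 0.596 to 252. Fitted without the filter on low counts, Hoxd8 without IFNγ was past the threshold (adjusted p = 0.00546, edgeR), whereas Hoxd8 with IFNγ (adjusted p = 0.136), Hoxb2 (0.289), Hoxb7 (0.0758), Hoxb9 (0.178), Hoxa10 (0.434) and Hoxa11 (0.299) were not. The intervals cover counting error only.

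Hoxa3 was at 35.6 and 31.4 normalised CPM in untreated sgCtrL and 23.1 and 21.1 CPM in Sin3Bsg1 cells, a log2 fold change of -0.60 (SE 0.0778, adjusted p = 1.79e-05, edgeR). Without IFNγ, Hoxa3 was at 22.4, 27 and 23.9 CPM in sgCtrL and 28.8, 28.8 and 26.1 CPM in Sin3Bsg1 cells, with 0.19 (SE 0.0822, adjusted p = 0.135). With IFNγ, it was at 20.2, 21.4 and 22.2 against 23.1, 24.3 and 20.3 CPM, with 0.09 (SE 0.0836, adjusted p = 0.556). The most abundant Hox gene thus passed the test in untreated cells, whereas its groups overlapped in the IFNγ experiment and its fitted values there had the other sign. The difference between the experiments was not tested.

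Hoxa5 was at 5.34 and 6.32 normalised CPM in untreated sgCtrL and 3.98 and 4.11 CPM in Sin3Bsg1 cells, with a log2 fold change of -0.53 (SE 0.161, adjusted p = 0.0199, edgeR). Without IFNγ, Hoxa5 was at 9.05, 9.84 and 9.51 CPM in sgCtrL and 7.69, 8.61 and 7.82 CPM in Sin3Bsg1 cells, with -0.24 (SE 0.109, adjusted p = 0.156). With IFNγ, it was at 9.09, 7.21 and 7.97 against 6.05, 6.82 and 6.31 CPM, with -0.33 (SE 0.111, adjusted p = 0.0526). The highest of these sgCtrL values is the replicate that stood apart, without which Hoxa5 was at -0.23 (adjusted p = 0.178), while without sgCtrL replicate 2 it was past the threshold (-0.41, adjusted p = 0.0276), as with RLE scaling and with a filter at 1 CPM (adjusted p = 0.0491 and 0.0457). The genotypes did not overlap in any of the 3 comparisons, though only the untreated one passed the test.

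Hoxa2 was at 3.56 and 3.84 normalised CPM in untreated sgCtrL and 2.68 and 2.17 CPM in Sin3Bsg1 cells, with a log2 fold change of -0.61 (SE 0.208, adjusted p = 0.0358, edgeR). Hoxa2 of the IFNγ experiment was at 6.25, 6.38 and 7.43 CPM in sgCtrL and 6.13, 5.52 and 6.19 CPM in Sin3Bsg1 cells without IFNγ, with -0.17 (SE 0.117, adjusted p = 0.382), and at 5.32, 5.47 and 5.85 against 5.26, 5.29 and 5.66 CPM with IFNγ. The groups did not overlap in the first of these and overlapped in the second. Hotairm1, a noncoding RNA, covers 14.5% of the exon bases of Hoxa2. The calls for Hoxa2, Hoxa5 and Hoxb6 in the untreated experiment were lost with DESeq2 (adjusted p = 0.159, 0.109 and 0.0981). That of Hoxa2 was also lost without Sin3Bsg1 replicate 2 or either sgCtrL library (adjusted p = 0.0588 to 0.212), that of Hoxa5 without Sin3Bsg1 replicate 1 or sgCtrL replicate 2 (adjusted p = 0.0579 and 0.149), and that of Hoxb6 without replicate 1 of either genotype (adjusted p = 0.257 and 0.263).

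Hoxa13 went the other way. It was at 3.49 and 3.91 normalised CPM in untreated sgCtrL and 6.63 and 5.96 CPM in Sin3Bsg1 cells, a log2 fold change of 0.77 (SE 0.159, adjusted p = 0.00144, edgeR). Hoxa13 of the IFNγ experiment was at 1.62, 2.5 and 3.1 CPM in sgCtrL and 3.16, 2.91 and 2.66 CPM in Sin3Bsg1 cells without IFNγ, with 0.27 (SE 0.232, adjusted p = 0.485). With IFNγ, it was at 2.19, 3.06 and 3.33 against 3.97, 4.03 and 3.18 CPM, with 0.38 (SE 0.221, adjusted p = 0.286). The groups overlapped in both comparisons of the IFNγ experiment, with the fitted values on the higher side. Without the replicate that stood apart, the values with IFNγ were 0.24 (adjusted p = 0.513) for Hoxa13, 0.06 (adjusted p = 0.676) for Hoxa3, -0.95 (adjusted p = 0.139) for Hoxb6 and -0.05 (adjusted p = 0.836) for Hoxa2.

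The remaining HoxA members passed no genotype test. Hoxa7 was at 9.13 and 9.66 normalised CPM in untreated sgCtrL and 8.25 and 8.48 CPM in Sin3Bsg1 cells, with a log2 fold change of -0.17 (SE 0.113, adjusted p = 0.298). Hoxa7 was at 3.07, 3.13 and 3.05 CPM in sgCtrL and 3.39, 2.48 and 3.14 CPM in Sin3Bsg1 cells without IFNγ, and at 2.43, 2.04 and 2.25 against 2.96, 2.74 and 2.57 CPM with it. The antisense RNA Hoxaas3 covers 20.3% of the exon bases of Hoxa7. Hoxa4 was at 0.604 and 0.476 CPM in untreated sgCtrL and 0.467 and 0.291 CPM in Sin3Bsg1 cells, at 0.593, 0.501 and 0.107 against 1.26, 1 and 0.43 CPM without IFNγ, and at 0.447, 0.642 and 0.18 against 0.71, 1.13 and 0.558 CPM with it. Replicates of Hoxa4, which had low counts, spread widely in the IFNγ experiment.

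Hoxa9 and Hoxa10, genes of the tail-ward end, which act in blood progenitors and in the uterus, were tested only in the IFNγ experiment. Hoxa9 was at 0.431, 0.375 and 0.481 normalised CPM in sgCtrL and 0.533, 0.348 and 0.945 CPM in Sin3Bsg1 cells without IFNγ, and at 0.149, 0.226 and 0.315 against 0.417, 0.363 and 0.429 CPM with it. Hoxa10 was at 0.97, 1.13 and 0.802 CPM in sgCtrL and 0.875, 0.696 and 1.03 CPM in Sin3Bsg1 cells without IFNγ, and at 1.04, 1.06 and 0.81 against 0.71, 1.25 and 1.67 CPM with it. Under IFNγ the Sin3Bsg1 libraries were all above the sgCtrL libraries for Hoxa7 and Hoxa9, the 2 members that did not overlap on the higher side, and neither passed the test.

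**Figure D4:**
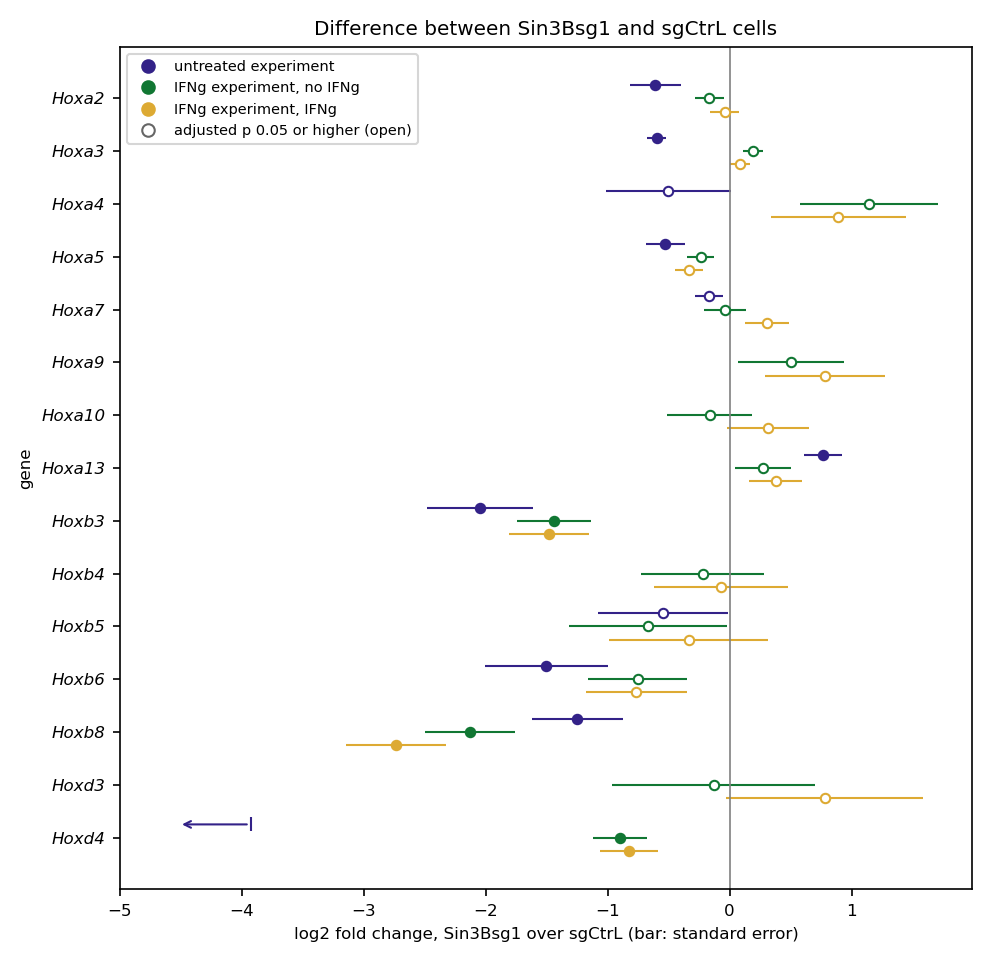
Log2 fold change of Sin3Bsg1 over sgCtrL (horizontal axis, bars SE) for the tested Hox genes reported here (rows) in untreated cells and in cells of the IFNγ experiment without and with IFNγ, filled where the adjusted p was under 0.05. The arrow for Hoxd4 starts at the near end of its counting interval (15.2-fold lower) in the untreated experiment. Hoxb3, Hoxb8 and Hoxd4 lie to the left of 0 and are called in all 3 comparisons, and the called HoxA genes belong to the untreated experiment alone.

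Epithelial markers, and markers of other cell types, moved with the genotype. The summed level of the 8 epithelial markers was 5499 to 5516 TPM in untreated sgCtrL and 7267 to 7367 in Sin3Bsg1 libraries, and all 7 tested were higher. It was 3886 to 3965 against 4208 to 4311 TPM without IFNγ (4 of 7 higher) and 3896 to 4626 against 5161 to 5353 TPM with it (6 of 7 higher). Of all genes tested, 15.1% were higher and 16% lower in the untreated comparison. These shares were 7.89% and 9.32% without IFNγ, and 8.62% and 7.89% with it. The summed level of the 8 fibroblast markers was 31.7 to 32.0 TPM in untreated sgCtrL and 10.2 to 11.2 in Sin3Bsg1 libraries, where Pdgfra and Pdgfrb, 2 of 4 tested, were lower. In the IFNγ experiment it was 85.8 to 89.5 against 75.3 to 79.9 TPM without IFNγ and 63.3 to 64.5 against 54.7 to 60.5 TPM with it, Pdgfra lower and Pdgfrb higher. The acinar sum was 17.0 to 17.6 against 9.68 to 11.8 TPM in the untreated, 11.99 to 12.9 against 9.72 to 11.9 TPM without IFNγ and 4.496 to 9.09 against 4.21 to 7.41 TPM with it. The part of these markers in the Hox results was not tested.

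Few Hox genes passed the test for an effect of IFNγ, and those that did were lower. Members with low counts that did not pass had wide errors. In Sin3Bsg1 cells Hoxb8 was at a log2 fold change of -0.93 (SE 0.469) and Hoxd3 at 0.55 (SE 0.784). Changes of such size were therefore not detectable for genes this low. In sgCtrL cells, 1 of 16 tested members, Hoxd4, was lower and none higher, while 30.2% of all genes tested passed the threshold, 15.7% higher and 14.5% lower. The groups did not overlap for 6 members (Hoxa2, Hoxa3, Hoxa7, Hoxa9, Hoxb3 and Hoxd4), all lower, against 41.5% of all genes, 20.8% higher and 20.7% lower. In Sin3Bsg1 cells, 2 of 16, Hoxa3 and Hoxa5, were lower, with 28.4% of all genes past the threshold, 16.1% higher and 12.3% lower. There, 5 members did not overlap, 1 higher (Hoxa13) and 4 lower (Hoxa3, Hoxa5 and Hoxb8 among them), against 45.4% of all genes, 24.3% higher and 21.1% lower. The median log2 fold change of the 16 members was -0.287 in sgCtrL and -0.257 in Sin3Bsg1 cells, and that of all genes -6e-04 and 0.00518. Both shares of called members were below the share of all genes.

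The values of each library were given above. Hoxd4 went from 5.87 to 7.17 normalised CPM without IFNγ to 2.93 to 4.59 CPM with it in sgCtrL cells, with a log2 fold change of -0.66 (SE 0.221, adjusted p = 0.0335, edgeR), and in Sin3Bsg1 cells from 2.96 to 4.13 to 1.67 to 3.15 CPM, with -0.59 (SE 0.241, adjusted p = 0.0821). The sgCtrL call was lost without the treated replicate 1 that stood apart (-0.50, adjusted p = 0.0786) and without any 1 of the 3 IFNγ-free sgCtrL libraries, and held for the sum of Hoxd4, Hoxd3 and Gm28230 (-0.80, adjusted p = 5.94e-04). Hoxa3 went from 26.1 to 28.8 down to 20.3 to 24.3 CPM in Sin3Bsg1 cells, with -0.31 (SE 0.0816, adjusted p = 0.0102), and from 22.4 to 27 to 20.2 to 22.2 CPM in sgCtrL cells, with -0.20 (SE 0.0842, adjusted p = 0.0865). Hoxa5 went from 7.69 to 8.61 down to 6.05 to 6.82 CPM in Sin3Bsg1 cells, with -0.33 (SE 0.111, adjusted p = 0.0363), a call that was lost without the filter on low counts (adjusted p = 0.0773) and without any 1 of the 3 IFNγ-free or of treated replicates 1 and 3 of Sin3Bsg1 (adjusted p = 0.0540 to 0.133). With the replicate that stood apart left out, Hoxa5 was also lower in sgCtrL cells (-0.33, adjusted p = 0.0307). Hoxd4 in Sin3Bsg1 cells was past the threshold without that replicate (-0.60, adjusted p = 0.0342), without treated Sin3Bsg1 replicate 2 (-0.92, adjusted p = 0.0137), with DESeq2 (adjusted p = 0.0482) and without the filter on low counts (adjusted p = 0.0260), so the genotype in which Hoxd4 was called depended on such choices. Hoxb3 (-0.55, SE 0.285, adjusted p = 0.166) and Hoxa7 (-0.46, SE 0.180, adjusted p = 0.0649) did not pass in sgCtrL cells, with or without the replicate that stood apart (without it -0.38, adjusted p = 0.384, and -0.54, adjusted p = 0.0614), nor did Hoxa13 in Sin3Bsg1 cells (0.35, SE 0.220, adjusted p = 0.259), the fitted change on the higher side.

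**Figure D5:**
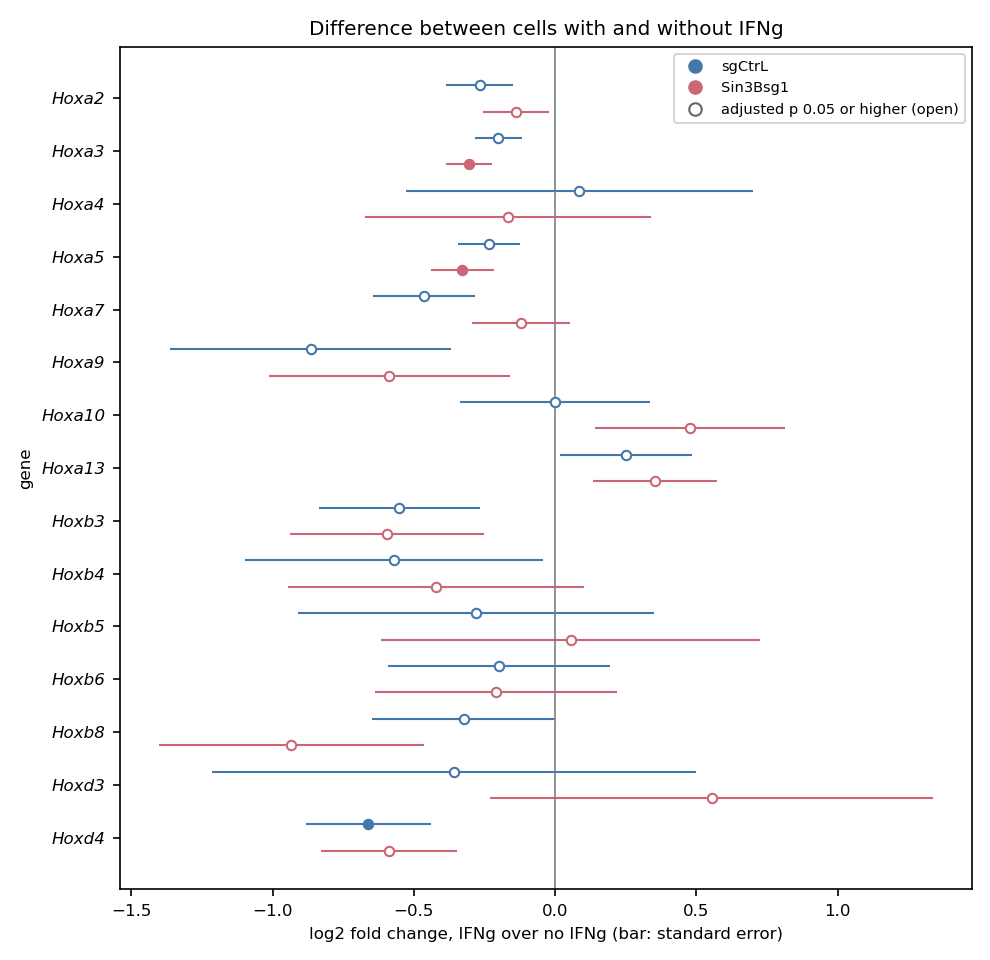
Log2 fold change of IFNγ over no IFNγ (horizontal axis, bars SE) for the tested Hox genes reported here (rows) in sgCtrL (blue) and Sin3Bsg1 (red) cells, filled where the adjusted p was under 0.05. Most points lie at or to the left of 0, and the filled points are Hoxd4 in sgCtrL and Hoxa3 and Hoxa5 in Sin3Bsg1 cells.

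Whether the effect of IFNγ differed between the genotypes was tested as an interaction. None of the 16 tested members passed (0.114% of all genes did), none had an unadjusted p under 0.05 with edgeR (5.42% of all genes did), and DESeq2 also called 0. The adjusted p of the members was 0.985 or higher. The interaction of Hoxb8 was -0.61 on the log2 scale with an SE of 0.565, and that of Hoxd3, the largest, was 0.91 with an SE of 1.16, so sizeable differences were not detectable for such low genes. Leaving out the IFNγ-treated sgCtrL replicate that stood apart, the genotype comparison with IFNγ gave the same 3 members, Hoxb3 at -1.65 (adjusted p = 0.00172), Hoxb8 at -2.61 (adjusted p = 4.44e-04) and Hoxd4 at -0.99 (adjusted p = 0.00386).

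The genes through which Hox proteins act and the regulators of the clusters were counted as lists. Beside each count, the share of all genes past the same threshold was 31.2% in the untreated genotype comparison, 17.2% without and 16.5% with IFNγ. Of 9 Hox cofactors, 5 were lower and 0 higher in untreated Sin3Bsg1 cells (16% of all genes were lower), among them Meis1 (log2 fold change -0.45), Meis2 (-0.36), Meis3 (-0.43) and Pknox2 (-2.27). None of the 9 passed without IFNγ, and Meis1 (-0.50) and Meis2 (-0.25) were lower with it. The median of the 9 was -0.362, -0.0236 and -0.0945 in these 3 comparisons. Of the ParaHox and other homeobox list, only Cdx2 and Pdx1 of 8 were tested. Cdx2, a hindgut factor that acts on Hox promoters, was lower in Sin3Bsg1 cells in all 3 comparisons, by -0.35 (adjusted p = 6.63e-08, edgeR), -0.21 (adjusted p = 0.0198) and -0.28 (adjusted p = 0.00337). Pdx1, the pancreatic ParaHox gene, was lower in the untreated experiment (-0.15, adjusted p = 0.00581). Cdx1, Cdx4, Gsx1, Gsx2, Evx1 and Evx2 were at or under 3 counts in every library.

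The Polycomb and MLL lists held changes in both directions, to be read beside the 31.2%, 17.2% and 16.5% of all genes past the threshold in the 3 comparisons. Of 12 PRC2 genes, 1 was higher and 2 lower in the untreated (Ezh1 0.25, Phf19 -0.59, Rbbp7 -0.10), none passed without IFNγ, and Ezh2, the methyltransferase, was higher with IFNγ (0.21). Of 19 PRC1 genes, 3 were higher and 7 lower in the untreated (15.1% and 16% of all genes), 0 and 2 without IFNγ (Pcgf5 -0.28, Pcgf3 -0.22) and 0 and 4 with it. Of 13 MLL and COMPASS genes, 1 was higher and 4 lower, 1 and 1 (Rbbp5 0.17, Wdr5 -0.23), and 1 and 2 in the same order. The medians of these lists lay between -0.0711 and 0.111 on the log2 scale.

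Of the retinoic acid genes, 12 were tested in the untreated cells, 3 higher and 3 lower, beside 15.1% and 16% of all genes. In the IFNγ experiment 13 were tested, 5 higher and 1 lower both without and with IFNγ. Of all genes, 7.89% were higher and 9.32% lower without IFNγ, and 8.62% and 7.89% with it. Stra6, the receptor that takes up retinol, was higher in Sin3Bsg1 cells each time, by 1.75, 1.88 and 1.87 on the log2 scale. Aldh1a3, which makes retinoic acid, was higher by 0.19, 0.36 and 0.28, and Rxra, a receptor subunit, was lower in each comparison (-0.32, -0.21 and -0.21). Cyp26b1, which breaks retinoic acid down, was lower in the untreated (-0.29) and higher without and with IFNγ (0.39 and 0.36). Stra6 was also lower with IFNγ in both genotypes, by -1.17 in sgCtrL and -1.18 in Sin3Bsg1 cells. IFNγ lowered 6 of these 13 genes in sgCtrL and 7 in Sin3Bsg1 cells and raised 1 in each, beside 14.5% and 12.3% of all genes lower and 15.7% and 16.1% higher.

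Next to the clusters and within them, 14 flanking genes and 1 or 2 noncoding RNAs were tested. Flanking genes passed the genotype test 2 times higher and 3 lower in the untreated, 0 and 3 without IFNγ and 1 and 3 with it. Of all genes, 31.2%, 17.2% and 16.5% were past the threshold in these comparisons. Under IFNγ, 6 flanking genes were higher and 2 lower in sgCtrL cells (30.2% of all genes were past the threshold) and 4 and 1 in Sin3Bsg1 cells (28.4%), among them Snx10, a sorting nexin beside HoxA, which was raised by 1.13 (adjusted p = 1.46e-11, edgeR) and 1.21 on the log2 scale. Hoxaas3, the antisense RNA of the middle of HoxA, was at 11.05, 9.09 and 10.95 normalised CPM in sgCtrL cells without and 7.6, 5.59 and 6.12 CPM with IFNγ, and at 10.58, 9.39 and 8.34 against 5.47, 5.2 and 6.61 CPM in Sin3Bsg1 cells. It was lower under IFNγ in both, by -0.69 (adjusted p = 0.00167, edgeR) and -0.71 (adjusted p = 0.00120), without overlap, and it passed no genotype test. Reads of Hoxaas3 and Hoxa7 cannot be told apart where they overlap if the counting ignored strand.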

How the data were processed

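RNA-seq of KPC1199 cells was analysed from 2 tables, 1 for the untreated and 1 for the IFNγ experiment, which were fitted apart. The deposited values are estimated counts per gene, some of them fractional, made by the authors before deposit, and were rounded to whole numbers here. The study's methods name mm9, HISAT2 with unique reads, featureCounts and TPM. The submitters' processing notes name fastp, HISAT2, StringTie, DESeq2 and mm39. Annotation and strand setting are not given in the sources used here. Control libraries are named after a lacZ guide in the tables and were matched to sgCtrL by elimination, there being only 2 guides per table. Assembled loci without a gene name (324, 0.615% to 0.677% of counts, untreated table only) were left out of library sizes and tests. The 6 columns of pooled means were not used.

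TMM-normalised counts were tested with edgeR 4.0.16 (quasi-likelihood, R 4.3.3) on 14589 and 14913 features that passed filterByExpr, with 1 spread estimate over all groups of an experiment, Benjamini-Hochberg adjustment over all features tested and a threshold of 0.05. DESeq2 1.42.0, other filters and scaling, fits of only 2 groups, each library left out and a replicate block were alternatives. Every log2 fold change in the text is from edgeR, and SE is its size over the square root of F. Scripts were tested on simulated data with known changes. Gene lengths held in the tables were used to turn the counts into TPM. Positions and exon overlaps came from GENCODE M39 on GRCm39, which may not be the build of the counts. Counting intervals are exact (Clopper-Pearson). Python 3.11.15 was used for the rest. All 39 members were accounted for. Members past the filter in either table were named with each library's value, except for a member that is not reported here, and full statistics were given for those past 0.05 in a genotype comparison. The members and lists were chosen with earlier results of these data known. Median biological variation was 2.84% and 6.78% in the 2 experiments.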

Additional observations from a re-analysis of the deposited data

Results flagged for a closer look

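Hoxa7 differed between the comparisons. In the untreated experiment its log2 fold change of Sin3Bsg1 over sgCtrL was -0.17 (adjusted p = 0.298, edgeR), with both Sin3Bsg1 libraries below both controls. With IFNγ it was 0.31 (adjusted p = 0.287), with all 3 Sin3Bsg1 libraries above all 3 controls, and without the control replicate that stood apart 0.38 (adjusted p = 0.228). Every library of one comparison thus lay opposite to those of the other. Neither value passed the test, and the difference between the comparisons was not tested.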

How the results depend on the processing

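No called member reversed under the alternatives run. The 17 called Hox results were fitted under 240 alternatives in all, of which 208 kept direction and call and 32 lost the call. In the untreated experiment DESeq2 called 4 members instead of 8 (Hoxa13, Hoxa3, Hoxb3 and Hoxd4), and leaving out 1 library gave 5 to 6. Leaving out 1 library gave 3 to 4 called members for genotype without IFNγ, 2 to 3 with IFNγ, 0 to 1 for IFNγ in sgCtrL and 1 to 3 in Sin3Bsg1 cells, against 3, 3, 1 and 2. In the IFNγ experiment Hoxb3 and Hoxb8 kept their genotype calls whichever library was left out. Hoxb8 had passed the filter on low counts there only through sgCtrL libraries. Fitting only the 2 groups compared, genotype calls over all genes went from 2567 to 3995 without and from 2463 to 1500 with IFNγ, and interaction calls ranged from 1 to 115 over the alternatives, against 17. From TPM to CPM sums, the HoxA share of Hox expression went from 79.3% to 84.4% in the IFNγ and from 89.4% to 92.9% in the untreated experiment, HoxB from 10.2% to 7.58% and from 8.84% to 5.82%, and HoxD from 10.5% to 8.03% and from 1.64% to 1.14%, since CPM does not correct for length.

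Libraries were compared across groups by their deviations from the mean of their own group. These deviations correlated between same-numbered libraries at -0.0286 to 0.119 in the IFNγ experiment and at 0.0129 in the untreated one. The numbers were therefore not taken to pair libraries. In the IFNγ experiment, the best match of a library among the 3 of another group had its own number in 18 of 36 cases. It did in 4 of 4 cases in the untreated experiment, where 2 libraries per group tie these cases to each other. Such matches do not exclude a pairing by number. With a replicate block, 8, 3, 3, 1 and 2 members were called, the last with Hoxa5 lost (adjusted p = 0.0522, edgeR) and Hoxd4 gained (adjusted p = 0.0485). Members under about 10 counts were tested only without the filter, where their counting error was wide.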
